A study of Mus musculus with 15 samples.

Results

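The genes described here encode the respiratory chain and the ATP synthase of the mitochondrial inner membrane. Members were the protein-coding genes whose symbols begin with Nduf (complex I and its assembly factors), Uqcr (complex III), Cox4 to Cox8 (complex IV), Atp5 (ATP synthase, also called complex V) or mt- (the mitochondrial genome), with Sdha, Sdhb, Sdhc, Sdhd (complex II) and Cyc1 (complex III). The rule used names alone and no measured value. It found 103 genes, of which 102 stood among the 21566 genes of the table of sorted cells and 95 among the 10781 genes of the time series table, with 94 in both. Among the sorted cells 90 members were nuclear and 12 mitochondrially encoded, and in the time series 85 and 10. mt-Co2 and mt-Nd3 were not analysed in the time series, nor were Ndufaf8 and the low-abundance relatives Cox4i2, Cox6b2, Cox7a1, Cox7b2 and Ndufa4l2, while Atp5mpl stood only in the time series.

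RNA came from the ventral midbrain of mice of the Pitx3-GFP genotype, in which green fluorescent protein (GFP) reports Pitx3, a transcription factor gene of midbrain dopamine neurons, and cells were purified by fluorescence-activated sorting. One experiment compared both fractions, GFP+ and GFP−, on embryonic day 14 (E14), in 3 libraries each. The other followed the GFP+ fraction over 3 ages, E14, E16 (day 16) and P0 (birth), again in 3 libraries each. All 5 groups share the genotype and the sort, and midbrains of 3 litters were used, but the labels do not tie a replicate to a litter, so the spread behind every p-value is that among these samples and may in part be technical. The labels call the cell type of every library dopamine neurons. In the sorted experiment all 10 dopamine neuron markers were higher in GFP+ cells, with a summed level of 94994 to 106803 normalized reads against 5832 to 7558 in GFP− cells. The GFP− libraries instead carried progenitor and cycling markers (74496 to 89351 normalized reads against 7124 to 8686) and erythroid markers (13738 to 14883 against 317 to 499.6).

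The respiratory chain passes electrons from NADH (complex I) and succinate (complex II) through ubiquinone, complex III and cytochrome c to oxygen at complex IV. Complexes I, III and IV pump protons, and the ATP synthase uses the returning protons to make ATP. Most subunits are encoded in the nucleus and imported, while a small set of core subunits of complexes I, III, IV and V is transcribed inside the organelle as long polycistronic RNAs, so each holoenzyme except complex II needs both genomes. Dopamine neurons are known for a high energy demand and for their sensitivity to complex I inhibitors.

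A value is a normalized read number: the reads of a gene divided by the authors' scaling factor for the library. Libraries held 17369191 to 22374153 gene reads in the sorted table and 17910017 to 33386535 in the time series table. Nuclear members together took 0.849% to 1.11% of the gene reads of a library. Mitochondrially encoded members took 0.216% to 0.593%. Changes are log2 fold changes of log2(normalized reads + 1), which understates the change of low genes, and a gene is said to rise or fall only where the adjusted p of limma-trend was under 0.05.

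Among all members, mt-Co1, the catalytic core subunit of complex IV (mitochondrial genome, chrM, 5328 to 6872), had the most reads per kilobase of exon, with 54292 normalized reads per kilobase over the sorted libraries. It was followed in the sorted table by mt-Atp8, an ATP synthase membrane subunit (chrM, 7766 to 7969), at 10011 and by mt-Nd1, a membrane subunit of complex I, at 9078. The highest nuclear member was Cox6b1, a complex IV subunit on the intermembrane side (chromosome 7, 30616861 to 30626151), at 6759 per kilobase, ahead of Atp5a1, the alpha subunit of the ATP synthase head (chromosome 18, 77773729 to 77782869), at 5997. The median nuclear member stood at 715 per kilobase. In the time series table the order at the top was mt-Co1 at 41876, Cox6b1 at 8183 and mt-Nd1 at 7479 normalized reads per kilobase.

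The mitochondrially encoded genes did not have like levels, although they are cut from shared precursor RNAs. Nuclear chromosomes carry copies of mitochondrial DNA, and reads from such stretches cannot be assigned to 1 place. For 6 of the 12 genes over 10% of all 50-base words were found in another annotated transcript of GENCODE M21. These 6 were mt-Co2 with 100%, mt-Co3 with 99.9%, mt-Atp6 with 99.5%, mt-Nd3 with 98.0%, mt-Nd4 with 62.2% and mt-Co1 with 51.1%. Among these 6, mt-Co1 had the highest level of all 12 genes in the sorted libraries, 54292 normalized reads per kilobase. The other 5 stood at 130 to 1188. The 6 genes with at most 10% stood at 1121 to 10011, so the levels of both classes overlapped. The lowest, mt-Co2 (chrM, 7013 to 7696), which encodes the complex IV subunit that receives electrons from cytochrome c, had 118, 90.1 and 80.5 normalized reads in the GFP− and 65.8, 74.0 and 103 in the GFP+ libraries, where mt-Co1 had 69678 to 91145. How reads with several matches were treated was not given in the sources used here, copies outside annotated transcripts were not searched, and the part of shared sequence in these levels was not tested. Changes between ages are therefore given for both classes.

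The first 60 bases of mt-Co2 and of Gm28661, an unprocessed pseudogene on the minus strand of chromosome 1 (24614885 to 24615565, GRCm38), are shown from the GENCODE M21 transcripts because they make the shared stretch visible. Over the full 681 bases of Gm28661 there were 0 mismatches to mt-Co2.
mt-Co2: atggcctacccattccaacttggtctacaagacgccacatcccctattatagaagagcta
Gm28661: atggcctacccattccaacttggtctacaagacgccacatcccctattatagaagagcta
A short read from either stretch fits both.

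**Figure D1:**
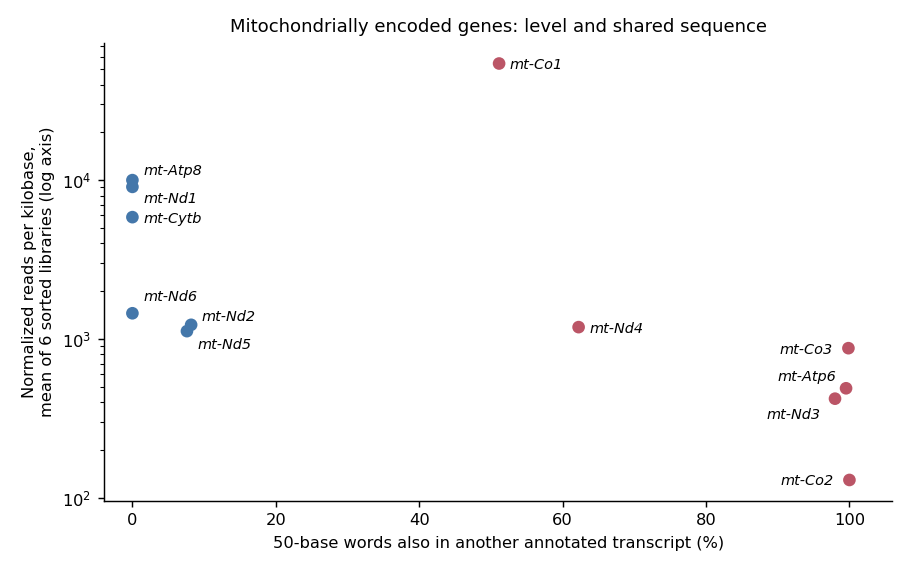
Each point is 1 of the 12 mitochondrially encoded genes; the x axis gives the percentage of its 50-base words found in another annotated transcript, and the y axis its mean normalized reads per kilobase over the 6 sorted libraries on a log scale. Genes with at most 10% (blue) lie at 1121 to 10011, while mt-Co2 with 100% lies at 130, and mt-Co1 with 51.1% is above them all at 54292.

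The time series asks how the GFP+ cells change around birth. From E14 to P0 the RNA of the mitochondrial genome fell in them. Of the 10 mitochondrially encoded genes tested 9 fell and 0 rose, with a median log2 fold change of -0.57, while the median of all 10781 genes was -0.05 and 55.7% of them were called (30.6% lower and 25.1% higher). From E16 to P0, 9 of 10 fell with a median of -0.53 (all genes -0.01), where 33.4% of all genes were called and 16.6% were lower. From E14 to E16, where 33% of all genes were called, 0 of the 10 passed in limma, 2 had an unadjusted p under 0.05, and the median was 0.12, with mt-Atp6 lowest at -0.37 (adjusted p of limma 0.11). A difference between the intervals passed for 3 of the 10. In these bulk libraries fewer mitochondrial genomes or transcripts per cell and a changed mixture of cells cannot be told apart.

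Per library, the share of gene reads taken by the mitochondrially encoded members was 0.433%, 0.383% and 0.325% at E14. At E16 it was 0.363%, 0.355% and 0.413%, and at P0 0.216%, 0.260% and 0.318%. All P0 libraries lay below all E14 and E16 libraries, though P0 library 3 lay close to E14 library 3. The mean share at P0 was 0.696 times that at E14, and 0.626 to 0.760 times with 1 library left out in turn. Most of this share was mt-Co1 alone. Without mt-Co1 the share was 0.0734% to 0.0907% at E14, 0.0824% to 0.0961% at E16 and 0.0540% to 0.0718% at P0. Its means were 0.0816% at E14 and 0.0628% at P0. No p is given for a sum over members.

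mt-Cytb, the cytochrome b of complex III, shares 0% of its 50-base words with other transcripts. It had 6712, 5869.7 and 5299 normalized reads at E14, 5578, 5032 and 5499.9 at E16, and 3126, 3753 and 4336 at P0. The P0 libraries were the lowest, and did not overlap with either earlier age. It fell by 0.68 on the log2 scale from E14 to P0 (SE 0.11, adjusted p of limma 0.00015) and by 0.53 from E16 (SE 0.11, adjusted p of limma 0.0028).

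The complex I genes of the mitochondrial genome encode membrane subunits of the proton-pumping arm. mt-Nd4 had 1726, 1523 and 1484 normalized reads at E14, 1727, 1661 and 1858 at E16, and 1023, 1065 and 1169.8 at P0. The first 2 ages overlapped and P0 lay below both. Its change from E16 to P0 was -0.69 (SE 0.09, adjusted p of limma 7.7e-05), and leaving out any library kept that call. mt-Nd5 had 1561, 1524 and 1510.3 reads at E14, was above these in all 3 E16 libraries (1774, 1845 and 1807; adjusted p of limma 0.069, not passed) and had 1101, 1167 and 1461 at P0. mt-Nd2 went from 1141 to 1262 at E14 and 1248 to 1511 at E16 to 873 to 1063 at P0. mt-Nd6, the member encoded on the light strand, had 548 to 665 at E14 and 397 to 483 at P0, and overlaps mt-Nd5 on the opposite strand. mt-Nd1 was the exception: with 8014, 6913 and 6166 reads at E14 and 5189, 6446 and 7867 at P0 its ages overlapped. Its change of -0.13 did not pass (SE 0.13, adjusted p of limma 0.44).

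Of the complex IV genes, mt-Co1 had 83927, 74851 and 64585 normalized reads at E14 and 39045, 48497 and 61086 at P0, a change of -0.60 (SE 0.15, adjusted p of limma 0.0040). mt-Co3 had 539.7, 669 and 809.7 at E14, 598, 1086 and 609 at E16, and 378, 434 and 481 at P0. The P0 libraries were again the lowest for both genes. The ATP synthase genes had the largest changes of the 10 from E14 to P0. mt-Atp6, the proton channel subunit, fell by 0.90 (SE 0.17), from 345, 270.3 and 300.1 to 163, 155 and 168. mt-Atp8 fell by 0.80 (SE 0.25), from 1430.0, 1467 and 1506 to 756, 970.3 and 808. Its E16 libraries were uneven, with 2884 in library 2 and 1152 in each of the others. Without that library mt-Atp8 changed by -0.35 from E14 to E16 (adjusted p of limma 0.019) where all libraries gave 0.09, and from E16 to P0 by -0.46 in place of -0.90.

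Both sequence classes fell: 5 of the 6 genes with at most 10% shared words from E14 to P0 and from E16 to P0, and 4 of the 4 tested genes above 10% in each comparison. Calls that did not hold with 1 library left out were those of mt-Nd5 (adjusted p up to 0.064, without P0 library 1 or 2), mt-Nd2 (up to 0.070, without E14 library 1 or P0 library 1) and mt-Co3 (up to 0.082, without E14 library 3 or P0 library 1) from E14 to P0. From E16 to P0 they were those of mt-Co1 (up to 0.093), mt-Nd6 (up to 0.091) and mt-Atp6 (up to 0.16), each among others without E16 library 3, P0 library 1 or P0 library 2. Between 6 and 10 of the 10 genes passed from E16 to P0 with a library left out, and between 6 and 9 from E14 to P0. The 2 mitochondrial ribosomal RNA genes together took 0.0611% to 0.0752% of gene reads at E14, 0.0432% to 0.0743% at E16 and 0.0354% to 0.0450% at P0, after a kit had removed ribosomal RNA. Of the 10 dopamine neuron markers 3 rose and 6 fell from E14 to P0 (median -0.67), while their sum went from 118281 to 126478 normalized reads at E14 to 234175 to 292191 at P0, led by Aldh1a1 (3.04). Of the 10 progenitor and cycling markers 3 were in this table, with sums of 4047 to 4306 at E14 and 2676, 2202 and 4403 in P0 libraries 1 to 3. Astrocyte, microglia, vessel and erythroid markers had no values in it, so admixture of such cells cannot be read there. The part of the ribosomal RNA and of these markers in the result was not tested.

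**Figure D2:**
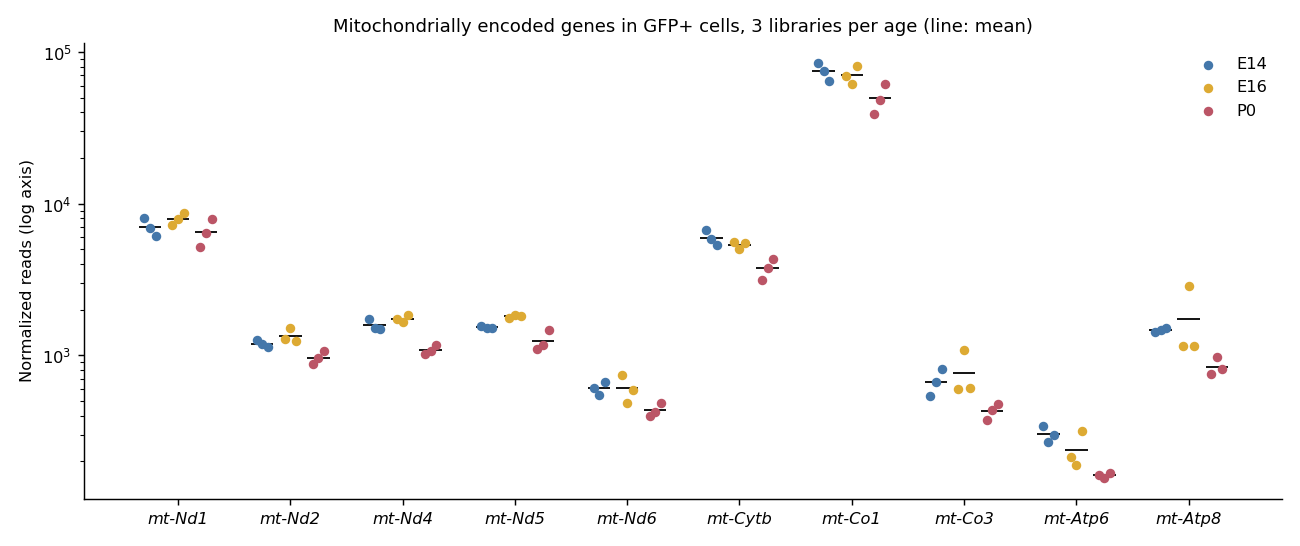
Normalized reads (log axis) of the 10 mitochondrially encoded genes of the time series; each point is a library, 3 per age, and the line is the mean. For 9 of the 10 genes the 3 P0 points lie below all E14 points, as in mt-Cytb (3126 to 4336 against 5299 to 6712), and in mt-Nd1 they overlap.

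**Figure D3:**
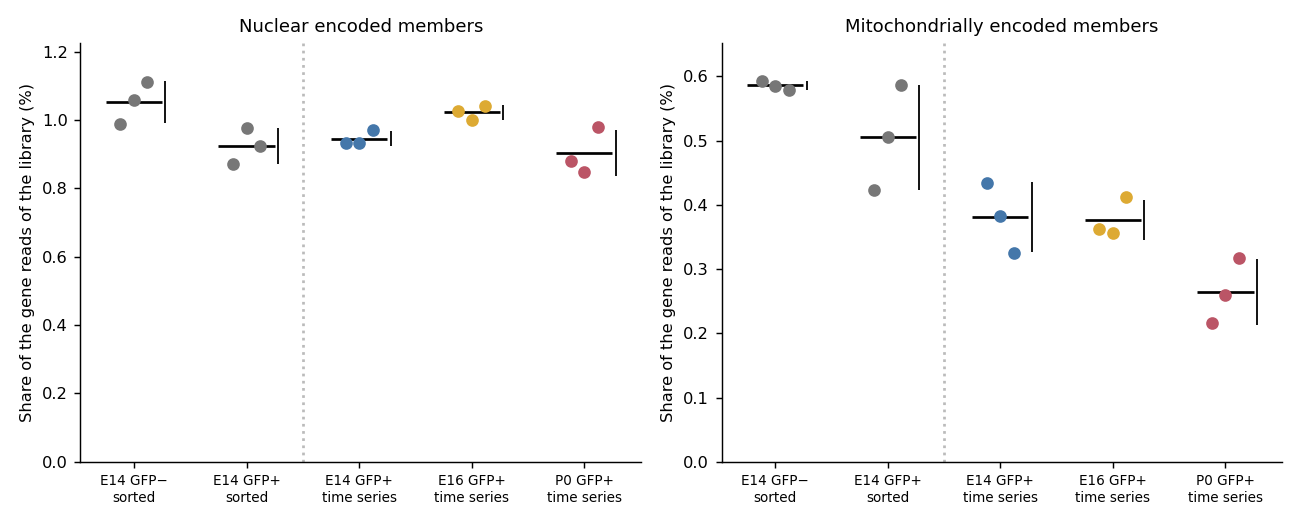
Share of the gene reads of each library (%) taken by the nuclear (left) and mitochondrially encoded (right) members; points are libraries, lines are means and the thin bars SD, n = 3 per group. The mitochondrial share, most of it from mt-Co1, lies lower at P0 (0.216% to 0.318%) than at E14 and E16. The nuclear share moves from 0.932% to 0.970% at E14 to 0.849% to 0.979% at P0. The sorted and time series tables hold different gene sets and are not compared.

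The nuclear members moved less and in both directions. From E14 to P0, 7 of 85 rose, 19 fell and 59 did not pass, so 30.6% were called, with 55.7% among all genes. With another scaling (trimmed mean of M values, TMM) 10 rose and 15 fell. By the adjusted p-values of the authors' deposited table, 7 nuclear members rose and 20 fell, and 7 mitochondrially encoded genes fell. Of the 7 that rose, 4 encode complex I assembly factors, 1 a complex II anchor subunit, and 2 stand in the ATP synthase group. From E14 to E16, 5 of 85 rose and 0 fell (33% of all genes called, 15.2% higher and 17.8% lower). From E16 to P0, 0 rose and 22 fell (25.9% of members, all of them lower, and 33.4% of all genes called, with 16.6% of all genes lower and 16.8% higher), and 75 of 85 log2 fold changes were negative, with a median of -0.18 where that of all genes was -0.01. By the authors' adjusted p-values 1 nuclear member rose and 25 fell from E16 to P0.

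The 3 libraries of each age did not overlap in 17 of 85 nuclear members from E14 to E16 (46.4% of all genes), in 29 from E16 to P0 (44.8% of all genes) and in 33 from E14 to P0 (65.2% of all genes).

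The count of falls from E16 to P0 rested on single libraries. Without P0 library 2 only 3 nuclear members passed, without E16 library 3 there were 6 and without P0 library 1 there were 8, against 33 without P0 library 3. The share of gene reads of nuclear members was 1.03%, 0.999% and 1.04% at E16 and 0.881%, 0.849% and 0.979% at P0, which did not overlap. Its mean at P0 was 0.956 times that at E14. Gene length moved with the result: 68 of the 85 nuclear members fell in the shortest of 4 equal groups of protein-coding genes by exon length (204 to 3218 bases). In that group 553 of 2550 genes fell and 199 rose from E16 to P0 (median -0.11), and in the longest group 340 of 2549 fell and 606 rose (median 0.06). Cytosolic ribosomal protein genes, another set of short abundant messages, fell in 31 of 42 cases from E16 to P0 (median -0.38). The part of length in the members' changes was not tested.

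**Figure D4:**
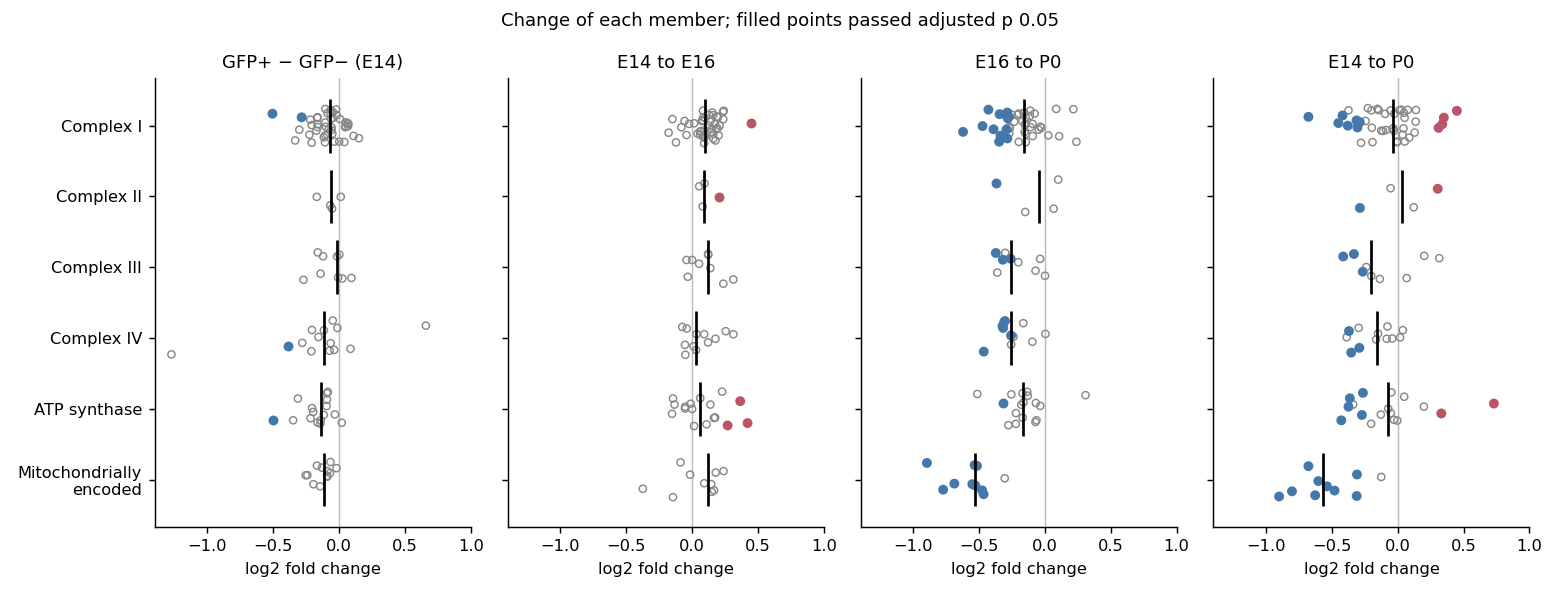
Log2 fold change of each tested member by complex in the 4 comparisons; filled points passed adjusted p 0.05 (red higher, blue lower), open points did not, and black lines are medians, with Cox4i2 at -2.54 in the first panel left outside the axis. From E16 to P0 the medians of complexes III and IV lie at -0.26 and that of the mitochondrially encoded genes at -0.53, and from E14 to P0 filled points lie on both sides in complexes I, II and V.

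Complex I oxidises NADH and is built from core subunits, which carry the redox centres and pumps, and accessory subunits around them. From E16 to P0, 10 of 29 accessory genes (34.5%) and 1 of 7 nuclear core genes (14.3%) fell, beside 16.6% of all genes. The difference between these shares was not tested. All 29 accessory genes had a negative log2 fold change in that interval, as did 5566 of all 10781 genes, and the shortest genes had a median of -0.11. The core gene was Ndufv2, a subunit of the NADH-oxidising module, with a change of -0.29. Ndufs1, the largest nuclear core subunit, had 5816 to 7196 reads at E14 and 6721 to 7058 at P0 and did not pass (0.13, SE 0.08, adjusted p of limma 0.20).

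From E14 to P0 the accessory subunit genes with the largest falls were Ndufb9 and Ndufa2. Ndufb9 (chromosome 15, 58933756 to 58939488) had 1939, 1952 and 2004 normalized reads at E14, 1842, 1505 and 1889.8 at E16, and 1316, 1394 and 1616 at P0. All P0 libraries lay below all E14 libraries, with a change of -0.45 (SE 0.10, adjusted p of limma 0.0015). Ndufa2 (chromosome 18, 36742332 to 36744557) changed by -0.42 (SE 0.12, adjusted p of limma 0.0097) and no longer passed without E14 library 3 or P0 library 1 (adjusted p up to 0.054). Both overlap other genes, Gm49356 on the same strand and Tmco6 on the opposite one, so some of their reads may belong to these.

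The complex I assembly factors help build the complex and are not part of the finished enzyme. Of the 7 tested in the time series, 4 rose from E14 to P0, 1 fell and 2 did not pass (Ndufaf3 and Ndufaf4). Of all genes 55.7% were called in this comparison, 25.1% higher and 30.6% lower, and with 7 genes the difference in shares was not tested. Ndufaf1, a factor of the membrane arm intermediate (chromosome 2, 119655446 to 119662827), had 457, 459.9 and 479.5 normalized reads at E14, 546, 533 and 536 at E16, and 621, 619 and 668 at P0. Its ages did not overlap, with a log2 fold change of 0.45 from E14 to P0 (SE 0.09, adjusted p of limma 0.00067). Ndufaf5, which modifies an arginine of a core subunit, went from 1117, 1196 and 1160.0 at E14 to 1688, 1457 and 1599 at E16 and 1503, 1321 and 1577 at P0. Its rise fell between E14 and E16 (0.45, SE 0.09, adjusted p of limma 0.0015). Ndufaf6 rose by 0.35 (SE 0.11) and Ndufaf7, a methyltransferase for a core subunit, by 0.31 (SE 0.09). The call of Ndufaf6 did not hold without E14 library 2 (adjusted p of limma 0.065).

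Ndufaf2, a late assembly factor (chromosome 13, 108002715 to 108158623), went the other way, from 1102, 992 and 1358 reads at E14 and 1304, 889 and 1137 at E16 to 760.1, 622 and 765 at P0 (-0.68, SE 0.14, adjusted p of limma 0.0011). Of its 50-base words 64.1% also lie in other transcripts, mainly the antisense gene B230220B15Rik, and the use of strand in counting was not given in the sources used here, while the call held with each library left out.

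**Figure D5:**
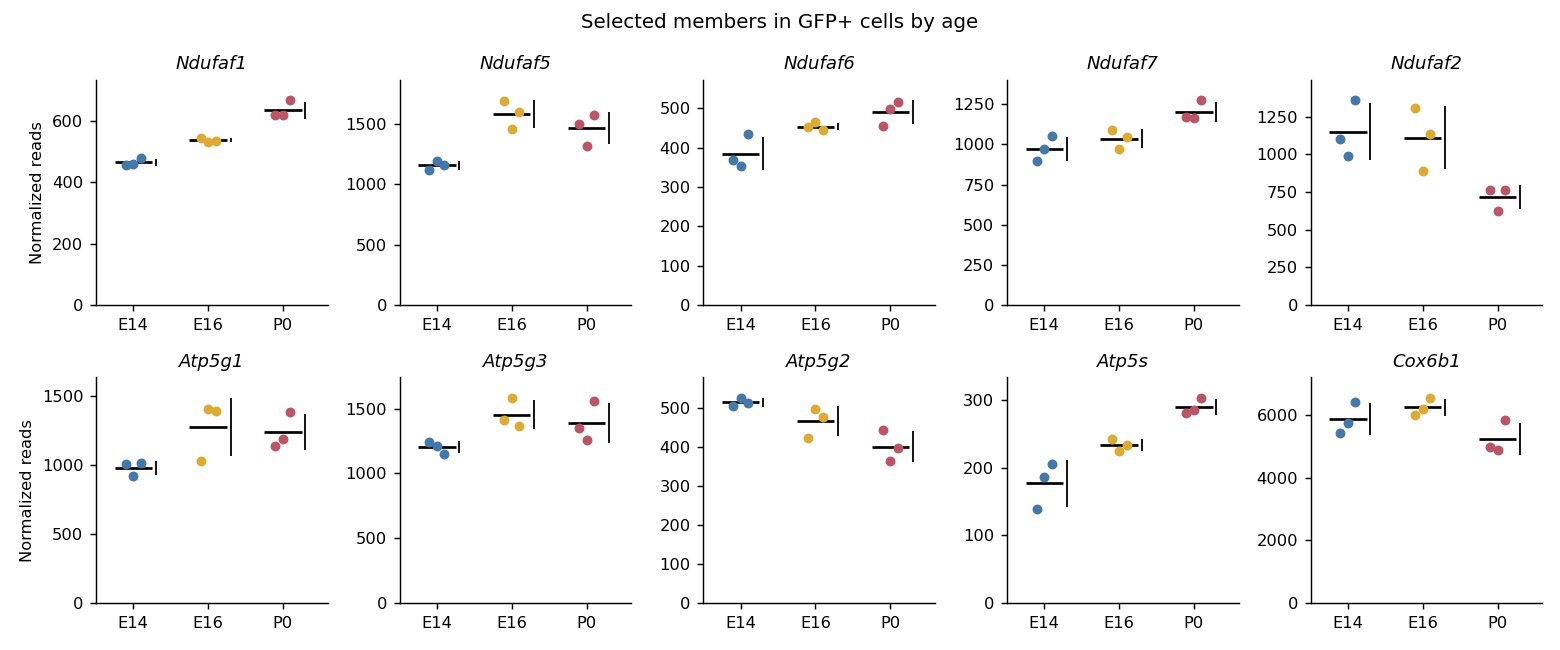
Normalized reads of 5 complex I assembly factor genes, the 3 c-subunit genes, Atp5s and Cox6b1 at E14, E16 and P0 from a 0 baseline; points are libraries, lines are means and thin bars SD, n = 3 per age. Ndufaf1 steps from 457 to 479.5 at E14 to 619 to 668 at P0, and Ndufaf2 and Atp5g2 end below their E14 values.

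Complex II, which links the citric acid cycle to the chain and has no mitochondrially encoded subunit, split between its membrane anchors. Sdhd (chromosome 9, 50596357 to 50603812) had 2109, 2233 and 2399 reads at E14, 2578, 2653 and 2515 at E16 and 2815, 2676 and 2818 at P0. It rose by 0.30 (SE 0.07, adjusted p of limma 0.0026), with no overlap between ages. Sdhc (chromosome 1, 171127165 to 171150603), the partner anchor, had 2271, 2364 and 2837 at E14, 2444, 2681 and 2751 at E16 and 1813, 2082 and 2218 at P0, and fell by 0.29 (SE 0.10, adjusted p of limma 0.023). The call for Sdhc did not hold without E14 library 3 or P0 library 1 (adjusted p up to 0.12). Sdha and Sdhb, the soluble catalytic subunits, did not pass (0.12 and -0.05).

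Of the 9 nuclear complex III genes, 3 fell from E14 to P0 and 0 rose, a share of falls near the 30.6% of all genes. Cyc1, the cytochrome c1 that hands electrons to cytochrome c (chromosome 15, 76343523 to 76346260), had 817, 825 and 831 normalized reads at E14, 669, 968 and 792 at E16 and 606, 614 and 635 at P0. The E14 and P0 libraries did not overlap (-0.41, SE 0.11, adjusted p of limma 0.0069), and the call held with each library left out. Uqcrh, the hinge subunit next to cytochrome c1, fell by 0.33 (SE 0.12, adjusted p of limma 0.024; up to 0.12 without E14 library 3 or P0 library 2). The third was Uqcr11, with -0.27.

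Complex IV reduces oxygen. Of its 12 nuclear genes tested in the time series 3 fell from E14 to P0 and 0 rose (30.6% of all genes lower), and 5 fell from E16 to P0 (16.6% of all genes lower). Cox7c (chromosome 13, 86044816 to 86046904) had 2097, 2189.7 and 2498 reads at E14 and 1813, 1595 and 1835 at P0 (-0.37, SE 0.09, adjusted p of limma 0.0022). Cox7a2, the widely expressed form of subunit VIIa, had 2262, 2444 and 2477 at E14 and 1816, 1729 and 2089 at P0 (-0.35, SE 0.08, adjusted p of limma 0.0021). Cox4i1, the widely expressed form of subunit IV, had 4822, 4932 and 5866 at E14 and 4129, 3999.8 and 4605 at P0 (-0.29, SE 0.09, adjusted p of limma 0.0097; up to 0.051 without E14 library 3 or P0 library 2). In all 3 genes the P0 libraries were below the E14 libraries. Cox7c shares 22.1% of its words with pseudogene transcripts, and exons of Cox4i1 overlap Emc8 on the opposite strand. Cox6b1, the nuclear member with the most reads per kilobase, had 5447, 5749 and 6436 at E14, 6021, 6189 and 6558 at E16 and 4999, 4898 and 5845 at P0. The P0 libraries overlapped with those of E14 and lay below those of E16, and its fall of 0.26 from E16 to P0 no longer passed without E14 library 2, E16 library 3, P0 library 1 or P0 library 2 (adjusted p of limma up to 0.14). Cox7a2l, a relative of Cox7a2 that joins complexes III and IV, had 3074 to 3486 at E14 and 3165 to 3509 at P0 and did not pass (0.04, SE 0.08, adjusted p of limma 0.70).

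In the ATP synthase, Atp5a1 of the catalytic head had the most reads per kilobase of the nuclear genes, and Atp5a1 and Atp5b had small changes. Atp5a1 had 21032, 21961 and 22880.2 reads at E14 and 19889.5, 19616 and 23296 at P0 (-0.07, SE 0.08), and Atp5b, the catalytic beta subunit, changed by -0.05 (SE 0.08). Neither passed. The head genes Atp5c1, Atp5d and Atp5e changed by -0.17, -0.22 and -0.51 from E16 to P0 and did not pass there. Atp5mpl and Atp5j2, small membrane subunits, fell by 0.43 (SE 0.15) and 0.37 (SE 0.10) from E14 to P0. The call of Atp5mpl did not hold without E14 library 1, E14 library 3, P0 library 1 or P0 library 2 (adjusted p up to 0.10). Atp5s, also named a coupling factor of the synthase, had 138, 187 and 205 reads at E14, 243, 225 and 234 at E16 and 281, 286 and 303 at P0. It had the largest rise of any nuclear member, 0.73 (SE 0.15, adjusted p of limma 0.00076), with no overlap between ages.

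The c subunits form the rotating ring, and the 3 genes Atp5g1, Atp5g2 and Atp5g3 encode the same mature peptide behind different import sequences. From E14 to P0 the calls of Atp5g1 and Atp5g2 had opposite signs, and neither held with every library left out. Atp5g1 (chromosome 11, 96068852 to 96075670) had 1004, 922 and 1016 reads at E14, 1032, 1405 and 1389 at E16 and 1139.5, 1185 and 1386 at P0. It rose by 0.33 from E14 to P0 (SE 0.12, adjusted p of limma 0.027), a call that did not hold without E14 library 2 or P0 library 3 (adjusted p up to 0.11). Atp5g2 (chromosome 15, 102662864 to 102672352) had 504, 525 and 511 at E14, 423, 497 and 475 at E16 and 442, 362 and 396 at P0. It fell by 0.36 (SE 0.11, adjusted p of limma 0.010; 0.055 without P0 library 2). Atp5g3 rose from E14 to E16 (0.27, SE 0.09, adjusted p of limma 0.038) and did not pass from E14 to P0 (0.20, adjusted p of limma 0.083). The E14 to E16 calls of Atp5g3 and Atp5g1 (0.37, adjusted p of limma 0.027) were each lost without some of the E14 or E16 libraries (adjusted p up to 0.12 and 0.11).

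Within each library, Atp5g1 had 1.99, 1.76 and 1.99 times the reads of Atp5g2 at E14, 2.44, 2.83 and 2.92 times at E16, and 2.58, 3.27 and 3.50 times at P0. The ratio does not depend on the scaling of the library. Its mean log2 value was 0.93 ± 0.10 at E14 and 1.63 ± 0.23 at P0 (SD, n = 3 each), a difference of 0.70 with a two-sided exact permutation p of 0.1, the smallest that 3 against 3 libraries allow. The ratio of Atp5g3 to Atp5g2 moved by 0.56 (exact permutation p of 0.1) and that of Atp5g1 to Atp5g3 by 0.13 (exact permutation p of 0.2). These 3 ratios were chosen after the values were seen, and adjustment over them could not bring any under 0.05. Atp5g2 shares 38.4% and Atp5g1 11.1% of 50-base words with other transcripts, mainly pseudogenes.

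Some members changed differently after E16 than before it, by the contrast of both intervals in the same fit (13.6% of all genes called, 5.62% lower and 8% higher). Of the nuclear members 5 of 85 had a lower change after E16 and 0 a higher one, and of the mitochondrially encoded genes 3 of 10. mt-Nd4 had a difference of -0.84 (SE 0.15, adjusted p of limma 0.0037), mt-Nd5 -0.79 (SE 0.17) and mt-Nd2 -0.64 (SE 0.17). The calls of mt-Nd4 and mt-Nd5 held with each library left out, and that of mt-Nd2 was lost without E14 library 2, E16 library 2 or P0 library 2 (adjusted p up to 0.084). The nuclear genes were Cox6a1, the main form of subunit VIa outside muscle, with -0.78, Ndufb6 with -0.58, Ndufaf5 with -0.56, Ndufc2 with -0.47 and Ndufa12 with -0.47. Cox6a1 had 736, 700.4 and 563 reads at E14, 729.6, 862 and 887 at E16, and 555, 541 and 707 at P0. None of the 5 nuclear calls held with every library left out: 0 to 11 nuclear members passed, with 0 without E16 library 3 or P0 library 2.

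The sorted experiment compares GFP+ with GFP− cells at E14. Of 88 nuclear members tested, 5 were lower in GFP+ cells and 0 higher, or 5.68%, where 30.7% of the 18260 genes tested were called (18% lower, 12.7% higher). With the column number as a block, 27 of the 88 nuclear members were lower and 0 higher. Of the 18260 genes 8466 were then called, 4317 lower and 4149 higher, so the low share of members called depended on leaving out the block. Signs leaned one way: 70 of 88 nuclear log2 fold changes were negative, with a median of -0.09 beside 0.02 for all genes. Short genes leaned the same way: in the shortest of 4 equal groups by exon length, which held 66 of the nuclear members, the median over 3561 genes was -0.11, and ribosomal protein genes had a median of -0.13. The part of length was not tested. The replicates of both groups did not overlap in 20 of 88 nuclear members, all lower in GFP+, or 22.7% beside 44.1% of all genes. Of the 12 mitochondrially encoded genes 0 passed in limma, 0 had an unadjusted p under 0.05, and 0 passed in edgeR or DESeq2. All 12 changes were negative (median -0.11), except that mt-Atp8 stood at 0.0039 with upper quartile scaling and at 0.017 in DESeq2, and without GFP+ library 1 the sign turned in 7 of 12 (median 0.03).

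The called genes were 2 accessory subunits of complex I, 2 of the complex IV group and 1 c subunit. Ndufb4 (chromosome 16, 37647170 to 37654453) had 695, 816 and 838 normalized reads in GFP− and 486, 572 and 595 in GFP+ cells (-0.51, SE 0.11, adjusted p of limma 0.0046). Atp5g2 had 599.5, 519.8 and 551 in GFP− and 364, 394 and 421 in GFP+ cells (-0.50, SE 0.10, adjusted p of limma 0.0032). Ndufa4 (chromosome 6, 11900292 to 11907497), first described in complex I and now counted with complex IV, had 2055, 2079.9 and 2334 in GFP− and 1516, 1693 and 1723 in GFP+ cells (-0.39, SE 0.09, adjusted p of limma 0.0047). The groups did not overlap in any of the 3. Ndufb5 changed by -0.28 (SE 0.08), and 4 of the 6 left-out libraries ended its call (GFP− library 2 or 3, GFP+ library 2 or 3; adjusted p up to 0.10). Ndufb4 shares 18.3% of its words with related transcripts, and Ndufb5 overlaps Mrpl47 on the opposite strand.

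The tissue-restricted relatives of complex IV subunits were close to the limit of detection at E14. Cox4i2, the form of subunit IV known from lung and other oxygen-sensing tissues (chromosome 2, 152754173 to 152765037), had 13.99, 6.13 and 10.5 normalized reads in GFP− and 1.20, 1.85 and 0 in GFP+ cells (-2.54, SE 0.60, adjusted p of limma 0.0073). It reached the minimum mean of 5 only through the GFP− libraries and fell under it without GFP− library 1 or 3. The call held with no minimum, and with a minimum of 50 the other 4 nuclear calls were left. Cox4i1 had 3449.8 to 4739 in GFP− and 3429 to 4100.5 in GFP+ cells and did not pass (-0.05, SE 0.12). Cox6b2, the testis form, had 12.9, 13.1 and 26.2 in GFP− and 3.59, 10.2 and 6.38 in GFP+ cells and did not pass (-1.27, SE 0.46, adjusted p of limma 0.058). Cox7a1, the muscle and heart form, had 8.61, 4.38 and 6.12 in GFP− and 13.2, 11.1 and 7.44 in GFP+ cells and did not pass (0.66, SE 0.43). Ndufa4l2, a relative of Ndufa4, had 2.13 to 3.59 reads in the 6 libraries and was under the minimum of a mean of 5, as was the testis form Cox7b2. Markers of astrocytes (6316 to 6989 summed reads in GFP− against 436 to 730.0 in GFP+), microglia (559 to 677 against 40.4 to 73.0), vessel cells (1472 to 1612 against 617 to 709), oligodendrocytes (3482 to 3772 against 927 to 1611), erythroid cells and cycling cells differed between these groups too, and their part in the differences was not tested.

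Other mitochondrial genes were read from lists chosen by function. Among 36 further assembly factors of complexes I to V tested in the time series, 6 rose and 9 fell from E14 to P0 (median -0.08), where 25.1% of all genes rose and 30.6% fell. For the E14 to P0 counts of the lists that follow, these shares of all genes are the background. Atp23, a protease and chaperone for the mitochondrially encoded Atp6 protein, Ttc19, needed for complex III, and Nubpl, an iron-sulfur carrier for complex I, rose by 0.61, 0.60 and 0.58. Cox20, a chaperone of the protein of mt-Co2, Sdhaf1, for complex II, and Pet100, for complex IV, fell by 0.85, 0.76 and 0.74. In the sorted cells 2 of 38 assembly factors were higher in GFP+ cells, Uqcc3 (0.42) and Cox19 (0.35), and 0 were lower. Of all genes in that comparison 12.7% were higher and 18% lower.

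Of 23 genes of mitochondrial transcription and RNA processing, 4 rose and 8 fell from E14 to P0 (median -0.16). Beside them 55.7% of all genes were called (25.1% higher, 30.6% lower). Hsd17b10, part of the mitochondrial RNase P, fell by 0.83, Slirp, which binds mitochondrial messages, by 0.68, and Twnk, the helicase of mitochondrial DNA, by 0.56. Lrpprc, the partner of Slirp in keeping these messages stable, rose by 0.41, the DNA polymerase gene Polg by 0.32 and Fastkd1 by 0.26. Tfam, which packages and transcribes mitochondrial DNA, did not pass (0.07, SE 0.09, adjusted p of limma 0.51). In the sorted cells 3 of 24 were lower in GFP+ cells (18% of all genes lower), with -0.34 for Tefm, -0.34 for Polg and -0.32 for Fastkd1.

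Of 9 nuclear regulators of mitochondrial genes, 7 fell and 1 rose from E14 to P0 (median -0.38). Nrf1, whose factor binds the promoters of many respiratory chain genes, fell by 0.62 (SE 0.08), Gabpa, the ETS-family factor of the same kind, by 0.38 (SE 0.08), Creb1 by 0.88 and Esrra by 0.41. The gene that rose was Ppargc1a, the coactivator PGC-1alpha, by 0.94 (SE 0.17), with 1.01 from E14 to E16 (SE 0.17) and -0.07 from E16 to P0, which did not pass. In the sorted cells 4 of 12 regulators were lower in GFP+ cells (18% of all genes lower). Their changes were -3.62 for Esrrb, -3.07 for Perm1, -2.41 for Esrrg and -0.40 for Ppargc1a. The filter was a minimum mean over both fractions, which a gene can reach through the GFP− libraries alone. Whether any of these 4 genes was close to the limit of detection in GFP+ cells was not tested. The same limit applies to the sorted counts of the other lists.

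Of 17 pyruvate dehydrogenase and citric acid cycle genes 6 rose and 2 fell from E14 to P0, led upward by Pdha1 (0.72), Dlat (0.57) and Sucla2 (0.51) and with falls of Idh2 (-0.66) and Suclg1 (-0.33). Of 19 genes of electron carriers and metabolite exchange 4 rose and 2 fell. These included the mitochondrial creatine kinase Ckmt1 (1.30), the ubiquinone synthesis gene Coq3 (0.92) and the outer membrane channel gene Vdac1 (0.55), with Slc25a5, an ADP/ATP carrier, at -0.40 and Etfdh at -0.33. Cycs, the somatic cytochrome c, did not pass from E14 to P0 (0.13, SE 0.10). Of 19 import genes 5 rose, led by Timm9 (0.71), Timm17a (0.43) and Tomm20 (0.43), and 6 fell, led by Tomm7 (-0.56), Timm17b (-0.54) and Timm8b (-0.43). Among 7 genes of uncoupling and glycolysis 3 rose and 1 fell, with Ldha, which makes lactate, at 1.32, Hk1 at 0.34, Pfkm at 0.21 and Pkm at -0.36.

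In the sorted cells the background for these last lists was 30.7% of all genes called (18% lower, 12.7% higher). Of 18 cycle genes 4 were lower in GFP+ cells and 0 higher, led by Suclg2 (-2.15), Idh3a (-0.37) and Pdha1 (-0.32). Of 20 carrier genes 4 were lower, led by Etfa (-0.77), Slc25a5 (-0.72) and Ckmt1 (-0.69), and Pdss2 was higher (0.35). Of 19 import genes Tomm7 alone was lower (-0.36). Of 9 uncoupling and glycolysis genes 3 were lower, Hk2 (-2.58), Ucp2 (-1.72) and Ldha (-1.34), and Slc25a27 was higher (0.36).

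Promoters of nuclear members were searched for the letters bound by regulators of this gene family and compared with the changes from E16 to P0. RefSeq promoters (GRCm38.p6), 250 bases before to 50 after the start, were found for 75 nuclear members and 17492 protein-coding genes, on both strands. The NRF1 motif GCGCATGCG was in 13.3% of the members and 2.61% of all genes. The ETS motif CCGGAAG was in 24% of the members and 12.9% of all genes, and the YY1 motif AAGATGGCG in 10.7% and 2.14%. No overlap between motifs was removed. The ETS motif stood in 5 of 18 members that fell from E16 to P0 and in 12 of 53 that did not pass. The NRF1 motif stood in 4 of 18 and 6 of 53, and the YY1 motif in 1 of 18 and 6 of 53. With the longer NRF1 motif that has 1 more C at its 3′ end, the counts were 2 of 18 and 5 of 53. With 1 more G at the 3′ end of the YY1 motif they were 0 of 18 and 5 of 53. The split by change thus rested on a few promoters. A match is a run of letters and no measured site.

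A 60-base stretch before the start is shown for the member of complexes I, III and IV with the largest fall from E16 to P0 among those with an NRF1 or ETS match there, with the match in capitals. Ndufa8, an accessory subunit of complex I (chr2:36049339-36049398, minus strand), changed by -0.43, Uqcr11 (chr10:80406853-80406912, minus strand) by -0.32 and Cox6a1 (chr5:115349086-115349145, minus strand) by -0.46 from E16 to P0. In the stretches shown, Ndufa8 and Cox6a1 carry NRF1 letters, and Uqcr11 carries ETS letters. Outside these stretches the promoter of Uqcr11 also holds an NRF1 match and that of Cox6a1 an ETS match.
Ndufa8: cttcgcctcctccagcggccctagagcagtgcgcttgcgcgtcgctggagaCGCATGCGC
Uqcr11: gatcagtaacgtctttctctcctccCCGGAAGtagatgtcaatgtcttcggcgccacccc
Cox6a1: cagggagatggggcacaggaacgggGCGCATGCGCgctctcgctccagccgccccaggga
In Cox6a1 the capitals span matches on both strands that overlap, and in Ndufa8 the match stands on the opposite strand at the last bases before the start.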

How the data were processed

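Sequencing reads of 15 libraries were processed by the authors. Named in the submitters' processing notes are the tools TopHat2, Trim Galore and DESeq2, with no version, and the build GRCm38 (mm10); the sources used here do not give the read counter, the use of strand or the handling of reads with several matches. The authors deposited normalized reads per gene, a signal value with 1 scaling factor per library. They also deposited log2 fold changes and adjusted p-values of their own comparisons, per the file headers. Dividing by the spacing of the deposited values gave whole reads within 0.1 for 100% of values. These reads give the depth, and in the sorted table they entered edgeR 4.0.16 and DESeq2 1.42.0 as alternatives. The columns of the sorted table name a fraction and a number but not a sample, so its libraries are numbered by column.

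Each table was tested over all its genes with a mean of at least 5 on the scale log2(normalized reads + 1). The two-sided test was limma-trend (limma 3.58.1 in R 4.3.3), adjusted by Benjamini and Hochberg, and 0.05 was the threshold. The sorted libraries had their own fit, and the 9 time series libraries shared 1 fit and its spread. The fits were tested on simulated data. Gene positions, exon lengths, overlaps and shared 50-base words come from GENCODE M21 (GRCm38), and promoters from RefSeq. The genes named were all mitochondrially encoded members, the paralogue sets and, per complex and direction, up to 3 with the largest change that passed the threshold, had a mean of 50 or more and whose groups did not overlap, in the sorted and the E14 to P0 comparison. To these came the 3 members with the most reads per kilobase, up to 3 per direction from each list of other mitochondrial genes, and Ppargc1a, Nrf1, Gabpa, Tfam and Cycs. Other members named for E14 to E16, for E16 to P0 or for the contrast of both intervals, and neighbours of the named genes in a complex, were chosen after their values were seen. The members and lists were chosen with earlier results of these data known. Alternatives were other pseudocounts, filters, scalings and tests, a replicate block and leaving out each library.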

Additional observations from a re-analysis of the deposited data

Results flagged for a closer look

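The change after E16 differed from the change before it in 8 members by the contrast of both intervals (limma, adjusted p under 0.05), with these differences on the log2 scale: mt-Nd4 -0.84, mt-Nd5 -0.79, Cox6a1 -0.78, mt-Nd2 -0.64, Ndufb6 -0.58, Ndufaf5 -0.56, Ndufc2 -0.47 and Ndufa12 -0.47. In all 8 the later change was the lower one, and the 3 E16 libraries enter both intervals.

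Circular RNAs of member genes, which the comparisons did not use, were counted in a separate time series table, where 9 of 7528 circular RNAs came from 8 member genes. The circular RNA circ_01414_Atp5c1 had 24 reads over the 9 libraries, of which 17 were in E16 library 2, circ_02504_Ndufv2 had 11, circ_03865_Atp5b 6, circ_04388_Atp5b 5 and circ_04779_Ndufa10 4. Each exceeded 3 reads in at least 1 library, the limit that a count of 0 allows, and the remaining 4 had 2 reads each.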

How the results depend on the processing

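Calls of nuclear members moved with single libraries. With 1 library left out, their number in the sorted cells ranged from 3 to 10 (0 to 0 for the mitochondrially encoded genes, 4185 to 5773 for all genes). It ranged from 1 to 8 between E14 and E16 (mitochondrially encoded 0 to 1), from 3 to 33 between E16 and P0 (6 to 10), from 17 to 34 between E14 and P0 (6 to 9), and from 0 to 11 for the contrast of both intervals (2 to 4, all genes 625 to 1801). The share folds of P0 over E14 ranged from 0.916 to 0.985 (nuclear) and 0.626 to 0.760 (mitochondrially encoded), and those of GFP+ over GFP− from 0.851 to 0.903 and 0.792 to 0.931.

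TMM scaling called 8 nuclear members in the sorted cells, and 8 nuclear and 1 mitochondrially encoded from E14 to E16, where upper quartile scaling and a fit of 2 ages alone also called 1 of the latter. The contrast held 1 nuclear member with limma robust and without trend. Leaving out genes with over 10% shared words left 5 mitochondrially encoded calls from E16 to P0 and 5 from E14 to P0, since fewer genes were tested. edgeR and DESeq2 on recovered reads each called 7 nuclear members in the sorted cells. Apart from the construction just named, the cause was not tested.

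Whether equal numbers mark paired libraries is not known from the labels. In the sorted table deviations of same-numbered columns correlated at 0.367, 0.120 and 0.0976, and those of unlike-numbered columns at -0.297 to 0.229. With the replicate number as a block the sorted table, by column number (chosen after seeing the data, since titles could not be matched to columns), gave 27 nuclear and 1 mitochondrially encoded calls and 8466 of all genes in place of 5599. The block gave 3 nuclear calls from E14 to E16 and 8 in the contrast.

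Of 1895 recomputed values for 109 named results, 1732 kept direction and side of the threshold, 99 lost the call, 21 gained it and 43 changed sign. In the sorted cells, values with 1 library left out were -0.45 to 0.021 for mt-Nd1, -0.20 to 0.050 for mt-Cytb, -0.15 to 0.078 for Cox4i1, -0.13 to 0.0074 for Cox7a2l, -0.24 to 0.17 for mt-Atp8, -0.11 to 0.065 for Cox7a2, -0.20 to 0.038 for mt-Nd2, -0.16 to 0.023 for Atp5g3, -0.23 to 0.10 for mt-Co3, -0.012 to 0.21 for Cox6a1, -0.43 to 0.087 for mt-Atp6 and -0.42 to 0.038 for mt-Nd3. From E14 to E16 they were -0.19 to 0.0066 for mt-Co1, -0.022 to 0.12 for Cox4i1, -0.0028 to 0.088 for Cox7a2l, -0.35 to 0.31 for mt-Atp8, -0.14 to 0.29 for mt-Co3 and -0.17 to 0.13 for mt-Nd6. From E16 to P0 they were -0.046 to 0.041 for Cox7a2l and -0.18 to 0.042 for Atp5g1, and from E14 to P0 -0.27 to 0.027 for mt-Nd1, -0.0015 to 0.093 for Cox7a2l and -0.14 to 0.023 for Ndufa4. Other settings turned sorted mt-Atp8 (0.0039 with upper quartile scaling, 0.017 in DESeq2), mt-Nd6 from E14 to E16 (0.019 with TMM, 0.013 with upper quartile), Cox7a2l from E16 to P0 (-0.0018 with upper quartile) and Ndufa4 from E14 to P0 (0.0016 with TMM). The number of libraries, 3 a group, low counts in the tissue-restricted forms and unknown strand use limit what can be read.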
